A study of Mus musculus with 229 samples.

Results

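The cells described here are 113 full-length single-cell profiles of the mouse cortex from the PDGFRa-GFP reporter strain, 53 captured at postnatal day 6 (P6, capture set 1) and 60 at postnatal day 3 (P3, capture set 2). They were chosen by the stage and set in their titles, out of 229 samples in the series. In PDGFRa-GFP mice green fluorescent protein follows the promoter of Pdgfra, so the reporter marks cells in which that promoter is or recently was in use and does not by itself define a cell type. Cells of both sets were taken by flow sorting as GFP-positive and negative for the dead-cell dye 7-AAD. They were captured on the C1 microfluidic chip for full-length sequencing of the transcripts of each cell. No treatment or further allele is given for either set. The strain field of these cells names hGFAP-gfp, while their titles and genotype name PDGFRa; the titles were followed. The number of mice behind each set is not given, and each stage is 1 set. Stage, animal and capture therefore cannot be told apart, no test between stages was made, and the values describe these cells.

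Oligodendrocyte precursor cells (OPCs) arise in the late embryonic and early postnatal forebrain from progenitors that also give rise to neurons and astrocytes. They carry the receptor PDGFRa, whose ligand PDGF keeps them dividing, and they become oligodendrocytes, the cells that wrap axons in myelin. The transcription factors Olig1, Olig2 and Sox10 set up and hold the lineage, and the proteoglycan NG2, made from Cspg4, lies on the surface of OPCs.

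Read depth of the C1 cells is unknown, because the values are TPM, the abundance of a gene's transcripts corrected for length and scaled to a fixed total per cell, which keeps no depth. P6 cells had a median of 5591 genes above 0 (4212 to 6488) and P3 cells 4124.5 (2750 to 5856), so more genes were detected at P6. At 10 TPM, the level at which a cell was counted for a gene throughout, the medians were 2748 and 2396 genes. Rows with names of predicted genes held a median of 22.7% of the TPM of a P6 cell and 18.8% of a P3 cell. No cell of either set had 3 or more markers of microglia, endothelium or erythroid cells at 10 TPM, while 2 P6 cells and 1 P3 cell had as many markers of pericytes and fibroblasts, and 1 of these P6 cells also had 3 of ependyma and choroid plexus; none of them was a lineage cell. Each set held cells with Xist and no Y-linked RNA (24 at P6, 26 at P3) and cells with Y-linked RNA and no Xist (15 and 7). Both were at 10 TPM in 3 P6 cells, all of them lineage cells, and in 0 P3 cells.

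The share of cells in the oligodendrocyte lineage was higher at P6. A lineage cell had at least 3 of the 5 genes Pdgfra, Olig1, Olig2, Sox10 and Cspg4 at 10 TPM or more. This held for 32 of 53 P6 cells (60.4%, exact Clopper-Pearson 95% interval 46.004 to 73.5) and 13 of 60 P3 cells (21.7%, 12.1 to 34.2). These intervals cover counting error only and not differences between animals or captures, so they do not compare the stages. None of the 5 genes reached 10 TPM in 11 P6 and 43 P3 cells, while all 5 did in 11 and 3. Just below the limit, 6 P6 cells and 1 P3 cell had 2 of the genes, and just above it 9 and 5 cells had 3. Among cells with 4200 to 5900 detected genes, a range that both sets share, the shares were 25 of 41 (60.98%) and 9 of 28 (32.1%).

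Most of the remaining cells were rich in genes of migrating interneuron neuroblasts, young inhibitory neurons that carry factors of the Dlx and Sp families. At least 3 of 20 such markers reached 10 TPM in 16 of 53 P6 cells (30.2%, 18.3 to 44.3) and 46 of 60 P3 cells (76.7%, 63.96 to 86.6). The 2 programmes lay in different cells. The 11 P6 and 41 P3 cells that had these markers without meeting the lineage rule carried 6 to 15 and 7 to 17 of them, and 10 and 41 of these cells had none of the 5 lineage genes. Lineage cells had at most 3 neuroblast markers at P6 and at most 4 at P3. The 5 lineage cells of each set that reached 3 neuroblast markers were kept, as were the 3 P6 lineage cells with both Xist and Y-linked RNA. No doublet caller was run. The summed TPM of the 20 markers had a median of 316 at P6 (0.338 to 6965) and 3985 at P3 (0.442 to 12689). Neither definition held for 10 P6 and 6 P3 cells. Of these, 7 and 5 had at least 3 of 20 astrocyte markers, with at most 12 and 15 in a cell. At least 3 committed oligodendrocyte and 3 myelin markers were found in 4 and 1 of them. The lineage rule thus leaves out some cells rich in later oligodendrocyte genes. A P6 cell among the 4 had only 4 committed and 3 myelin markers, beside 17 OPC, 10 cycling and 13 S phase markers. Another P6 cell that met neither definition had 18 cycling markers, so the rule leaves out some cycling cells too.

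**Figure D1:**
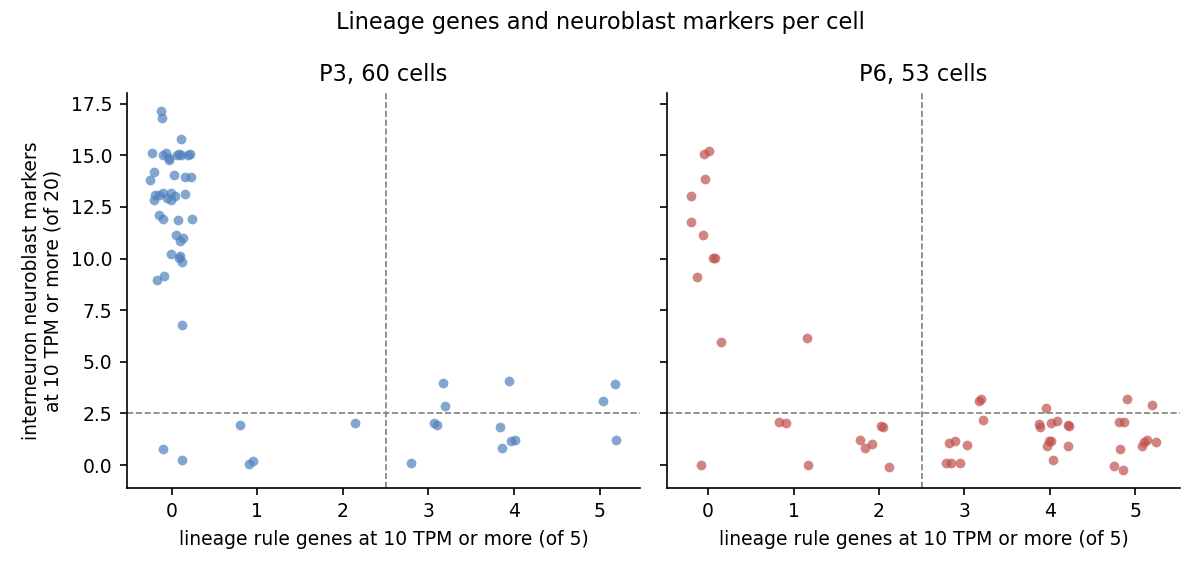
Each point is 1 cell, placed by how many of the 5 lineage genes (x axis) and of 20 interneuron neuroblast markers (y axis) reached 10 TPM, with a small random shift so that points do not hide each other. Dashed lines mark the limit of 3 on each axis: 32 of 53 P6 cells and 13 of 60 P3 cells lie to the right, and most P3 cells lie at the upper left.

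Over all cells, 15737 genes had a mean of at least 1 TPM in either set. A gene was taken as past the rule when the means, with 1 TPM added to each, differed at least 2-fold and the share of cells at 10 TPM differed by at least 20 percentage points in the same direction. This held for 461 genes higher at P6 (2.93%) and 167 lower (1.06%). The excess of higher genes was not seen among cells with 4200 to 5900 detected genes, where 347 were higher and 515 lower. The median log2 ratio of all genes was 0.32, so a gene at the centre of the distribution was itself slightly higher at P6. Predicted genes made up 23.9% of the genes compared, 36.01% of the higher and 15.6% of the lower ones.

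Genes of the OPC list were higher at P6 across all cells. All 25 compared had a higher mean, against 58.1% of all genes. Past the rule as higher were 13 of them, against 2.93% of all genes, and none was past it as lower. Their median log2 ratio was 1.26 against 0.32 for all genes. Pdgfra itself ranged from 0 to 2013 TPM with a median of 12.6 at P6, and from 0 to 803 with a median of 0 at P3, reaching 10 TPM in 27 and 11 cells (log2 ratio 1.98). Its range at P3 lay within that at P6, and what set the sets apart was the number of cells above 0: 44 of 60 P3 cells were at 0, against 11 of 53 at P6. Lhfpl3, a tetraspan membrane protein gene that marks OPCs in brain, reached 10 TPM in 34 and 14 cells with means of 454 and 125 TPM. Sox6, a factor that holds OPCs in the precursor state, had means of 395 and 90.1 TPM. Cspg5, a neural proteoglycan, and Pcdh15, a protocadherin of OPCs, had log2 ratios of 1.87 and 2.63.

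Genes of oligodendrocytes that leave the precursor state were also higher over all cells. Of 15 committed oligodendrocyte genes 14 had a higher mean and 1 a lower one, against 58.1% of all genes with a higher mean. Past the rule as higher were 4, against 2.93% of all genes, and none was past it as lower. The 4 were Gpr17, a receptor of committed precursors (28 of 53 and 12 of 60 cells at 10 TPM), Bcas1 (21 and 8), the calcium channel gene Itpr2 (21 and 7) and the axonal and glial adhesion gene Nfasc (16 and 4). Of 13 genes of compact myelin and its lipids, 1 was past the rule as higher, against 2.93% of all genes. It was Ugt8a, which makes galactosylceramide. Mog, a late surface protein of myelin, reached 10 TPM in 1 P6 cell and no P3 cell. At least 3 of 18 myelin genes were at 10 TPM in 14 P6 cells (26.4%, 15.3 to 40.3) and 3 P3 cells (5.00%, 1.04 to 13.9).

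Genes of interneuron neuroblasts were the list with the most genes past the rule as lower over all cells. Of 20 compared, 19 had a lower mean at P6, against 41.9% of all genes. Past the rule as lower were 13, against 1.06% of all genes, and none was past it as higher. The median log2 ratio was -1.91 against 0.32 for all genes. Sp8, a zinc finger factor of olfactory bulb interneurons, ranged from 0 to 989 TPM with a median of 0 at P6, and from 0 to 3095 with a median of 330 at P3. It reached 10 TPM in 7 of 53 and 40 of 60 cells (log2 ratio -2.79). The ranges overlap, and Sp8 was low or at 0 in some P3 cells and high in a few P6 cells. The homeobox genes Dlx1 and Dlx5 and Dlx6os1, a transcript antisense to Dlx6 whose reads cannot be told from those of its partner without strand, reached 10 TPM in 7, 6 and 9 P6 cells and in 35, 35 and 39 P3 cells. Gad2, which makes the transmitter GABA, did so in 8 and 33 cells.

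Of 20 general neuronal genes 15 had a lower mean and 4 were past the rule as lower (Tubb3, Stmn2, Elavl3 and Celf4), against 1.06% of all genes, and none as higher. Tubb3, a tubulin of young neurons, had a median of 1.46 TPM at P6 (highest 4448) and 1395 at P3 (highest 10894). Nrep, a gene of regenerating and growing neurons, had a mean of 224 TPM at P6 and 1194 at P3, with 20 and 52 cells at 10 TPM. Of the other lower genes named by the rule, Cdkn1b, which makes the cell cycle inhibitor p27, reached 10 TPM in 26 of 53 P6 cells and 56 of 60 P3 cells. Its means were 41.3 and 92.5 TPM, a log2 ratio of -1.14.

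In the range of 4200 to 5900 detected genes the median log2 ratio of the neuroblast list was -0.92, and Sp8, Tubb3, Nrep, Pdgfra and Lhfpl3 stayed past the rule, while Sox6, Sox10, Olig1, Dlx5 and Gad2 did not. In sorted cells, a smaller number of neuroblasts in the cortex and a smaller number passing the GFP gate cannot be told apart.

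The second comparison kept only the lineage cells, 32 at P6 and 13 at P3, and left out the 5 rule genes. It compared 14083 genes, of which 628 were higher at P6 (4.46%) and 452 lower (3.21%). In the range of 4200 to 5900 detected genes 759 were higher and 871 lower. The median log2 ratio of all genes was 0.72, and the list medians below should be read against it. Lineage cells of both sets had similar numbers of genes at 10 TPM (medians 2769.5 and 2766), but more detected genes at P6 (5583.5 and 4733). With only 13 P3 cells, 1 cell is worth 7.69 percentage points.

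Without the 5 rule genes, the OPC list did not set the stages apart among lineage cells, which were themselves chosen by OPC genes. Of 20 other OPC genes compared, 13 were higher and 7 lower, and the median log2 ratio of 0.54 lay below that of all genes. Past the rule was 1, as higher, against 4.46% of all genes. The exception was Gjc3, a connexin gene of oligodendrocytes, in 10 of 32 and 1 of 13 cells. Lhfpl3 had medians of 603 and 528 TPM and reached 10 TPM in 29 of 32 and 13 of 13 cells. Sox6 had a log2 ratio of 2.01, with medians of 377 and 50.3 TPM, but its share of cells at 10 TPM differed by less than 20 points (28 of 32 and 9 of 13). The 5 genes that defined the lineage cells had means at P6 and P3 of 249 and 174 TPM for Pdgfra, 398 and 566 for Olig1, 129 and 110 for Olig2, 151 and 82.8 for Sox10, and 63.996 and 39.6 for Cspg4. These are given as a description, since they chose the cells.

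Of 15 committed oligodendrocyte genes 9 had a higher mean in P6 lineage cells, with a median log2 ratio of 0.42, and of 11 myelin genes 9 did, with a median of 1.17 against 0.72 for all genes. Nfasc was past the rule as higher (12 of 32 and 2 of 13 cells at 10 TPM) and Cnp, an enzyme of myelin membranes, as lower (18 of 32 and 11 of 13 cells), and neither was past it without the lineage cells that had 3 neuroblast markers. Mycl, a Myc family factor, was past it as lower too, but without the highest cell of each set its log2 ratio was 0.0093. Gpr17 had means of 313 and 407 TPM. At least 3 of the committed markers were present in 30 of 32 and 12 of 13 lineage cells. Of 14 primitive OPC genes 1 was past the rule as higher and 1 as lower, against 4.46% and 3.21% of all genes. The lower one was Hes6, which opposes Hes1 in neural differentiation, in 10 of 32 and 7 of 13 cells.

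**Figure D2:**
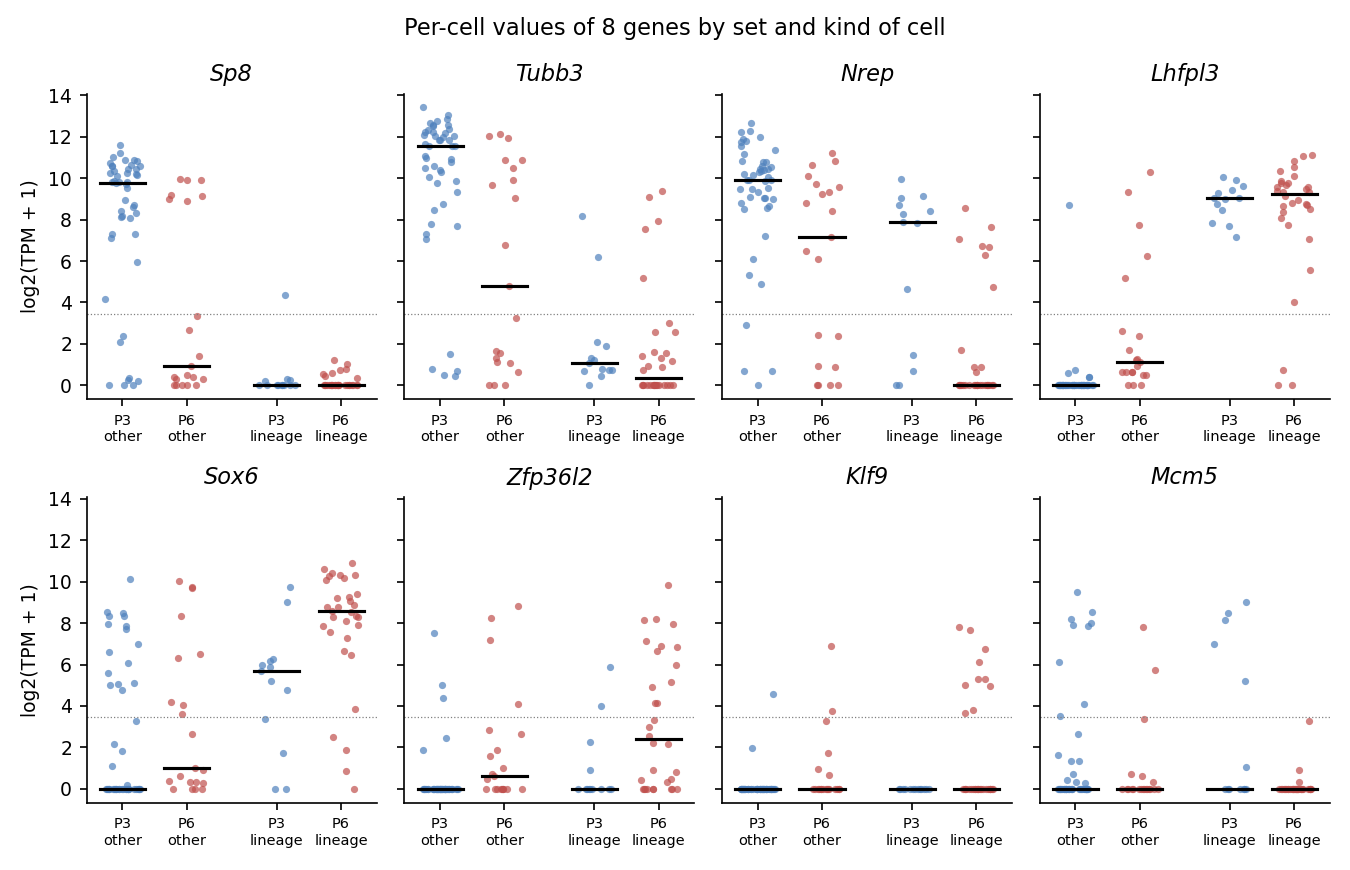
Each point is 1 cell, with log2(TPM + 1) on the y axis, split on the x axis into P3 (blue) and P6 (red) cells that did not and did meet the lineage rule; black bars are medians and the dotted line is 10 TPM. Sp8 and Tubb3 are high mainly in cells outside the lineage rule, Lhfpl3 is high in lineage cells of both stages, and Nrep and Sox6 differ between the stages within lineage cells.

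Of 20 genes of DNA synthesis (S phase) 17 had a lower mean in P6 lineage cells and 4 were past the rule, against 3.21% of all genes, with a median log2 ratio of -1.37. Mcm5, a subunit of the replicative helicase, reached 10 TPM in 0 of 32 P6 cells (upper limit of the exact interval 10.9%) and in 5 of 13 P3 cells (38.5%, 13.9 to 68.4). Its highest values were 8.69 and 514 TPM. Mcm6 of the same helicase was at 10 TPM in 3 and 5 cells. Rrm2, a subunit of ribonucleotide reductase, was past the rule as lower, but its log2 ratio of -1.18 became 1.11 without the lineage cells that had 3 or more cycling markers. Prim2, the large primase subunit, was outside that list and was at 10 TPM in 8 of 32 and 12 of 13 cells. Only 2 P6 and 1 P3 lineage cells had 3 or more cycling markers, and Mki67, a marker of cycling cells, was at 10 TPM in 2 and 0. Of 20 cycling genes 13 had a higher mean at P6 and none was past the rule, with a median log2 ratio of 0.96, which became -2.19 without those 3 cells. At least 3 of the 20 S phase markers were at 10 TPM in 14 of 32 P6 and 10 of 13 P3 lineage cells. Few cells had many of them. The highest counts were 15, 12 and 12 at P3, then 6, and 13 at P6, then 8, so the means lean on few cells. Both P3 cells with 12 also had 4 neuroblast markers. Without the lineage cells that carried 3 neuroblast markers the S phase median was -0.59. With at least 2 rule genes required of a lineage cell, the S phase median was -1.20 and the cycling median 2.21.

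Of 13 genes of cyclin-dependent kinase inhibitors, D cyclins and their partners, 2 were past the rule as lower in lineage cells, Cdkn1b and Rb1, and none as higher. Of all genes 3.21% were past it as lower and 4.46% as higher. Cdkn1b was at 10 TPM in 13 of 32 P6 cells and 11 of 13 P3 cells, with medians of 6.05 and 19.6 TPM. Other lower genes are named singly, by the size of their difference. Supt16, a subunit of the histone chaperone FACT, was there in 3 of 32 and 8 of 13 cells with means of 13.4 and 165 TPM. Psmb5, a catalytic subunit of the proteasome, had medians of 5.44 and 460 TPM and reached 10 TPM in 14 of 32 and 12 of 13 cells. Uchl1, a neuronal ubiquitin hydrolase, Snrpa1, a component of the spliceosome, and Sirt6, a nuclear deacylase, were at 10 TPM in 8, 6 and 8 P6 cells and in 10, 9 and 10 P3 cells. Nrep was lower here too, with medians of 0 and 237 TPM and 7 of 32 against 9 of 13 cells, and the neuroblast list as a whole had 0 of 10 compared genes past the rule.

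Of 72 genes of oxidative phosphorylation, the mitochondrial chain that makes ATP, 54 had a lower mean in P6 lineage cells, 8 were past the rule as lower and 1 as higher, with a median log2 ratio of -0.61. The same rule held for 3.21% of all genes as lower and 4.46% as higher. Cox6b1, a subunit of complex IV, had medians of 210 and 905 TPM and was at 10 TPM in 25 of 32 and 13 of 13 cells. Atp5g2, of the ATP synthase ring, had medians of 56.8 and 396 TPM. Ndufs1, of complex I, was the member past the rule as higher (15 of 32 and 2 of 13 cells). Over all cells 56 of 74 were lower and 1 was past the rule.

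Of 30 axon guidance and adhesion genes 23 had a higher mean in P6 lineage cells and 4 were past the rule as higher, none as lower, with a median log2 ratio of 1.18. Of all genes in lineage cells 62.6% had a higher mean and 4.46% were past the rule as higher. Sema6d, a transmembrane semaphorin, was at 10 TPM in 24 of 32 and 6 of 13 cells with means of 442 and 109 TPM, and Sema6a in 18 and 3 cells with means of 105 and 41.4. The secreted semaphorin gene Sema3d was in 9 and 1 cells and the ephrin receptor gene Epha4 in 12 and 2. The median log2 ratio of 12 growth factor receptor genes was 0.63. Of these, 1 was past the rule as higher and 1 as lower, against 4.46% and 3.21% of all genes. The higher one was Ntrk3, the receptor for neurotrophin 3, in 18 of 32 and 4 of 13 cells, with means of 183 and 71.7 TPM. With at least 4 rule genes required of a lineage cell, Sema6a and Ntrk3 were no longer past the rule.

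Klf9, a zinc finger factor induced by thyroid hormone, was at 0 in all 13 P3 lineage cells and at 10 TPM in 10 of 32 P6 lineage cells (31.2%, 16.1 to 50.008), where it ranged from 0 to 224 TPM. Zfp36l2, an RNA-binding protein gene whose product speeds the decay of messages rich in AU, was in 13 of 32 and 2 of 13 cells with means of 75.1 and 5.96 TPM. Its relative Zfp36l1, past the rule over all cells (31 of 53 and 11 of 60), was in 24 of 32 and 9 of 13 lineage cells and not past it there. Fmr1, the gene of the RNA-binding protein lost in fragile X syndrome, was in 12 of 32 and 0 of 13 lineage cells. Without the lineage cells that had 3 neuroblast markers, Zfp36l2, Sema3d, Epha4, Slc1a2 and Clu were not past the rule. B2m, the light chain of MHC class I, was in 17 of 32 P6 cells and 2 of 13 P3 cells, with medians of 13.2 and 0 TPM. These genes are named singly. Of 8 thyroid hormone genes compared in lineage cells, 5 had a higher and 3 a lower mean, and 1 was past the rule as higher. Of 13 genes of RNA-binding proteins, 2 were past it as higher and 1 as lower. Of all genes 4.46% were past it as higher and 3.21% as lower.

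Immediate early genes, which are switched on within minutes of stimulation or tissue handling, were higher at P6. Over all cells 18 of 19 had a higher mean and 2 were past the rule, against 58.1% and 2.93% of all genes, with a median log2 ratio of 2.04; Egr1 had medians of 1217 and 16.2 TPM and Fos of 87.7 and 0.139. The median was 0.67 when mean log2 values were compared. In lineage cells 15 of 17 were higher and none was past the rule. The part of tissue handling was not tested. Of 12 astrocyte genes compared in lineage cells 8 had a higher and 4 a lower mean. Past the rule as higher were 3, against 4.46% of all genes. These were Slc1a2, a glutamate transporter, in 14 of 32 and 3 of 13 cells, Clu in 12 and 2, and Sparcl1 in 11 and 1. Of the genes that define astrocytes, Gfap was at 0 in every lineage cell, and Aqp4 and Gja1 were at 10 TPM in none. At least 3 of the 20 astrocyte markers were present in 23 of 32 and 5 of 13 lineage cells, and their part in the other differences was not tested.

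**Figure D3:**
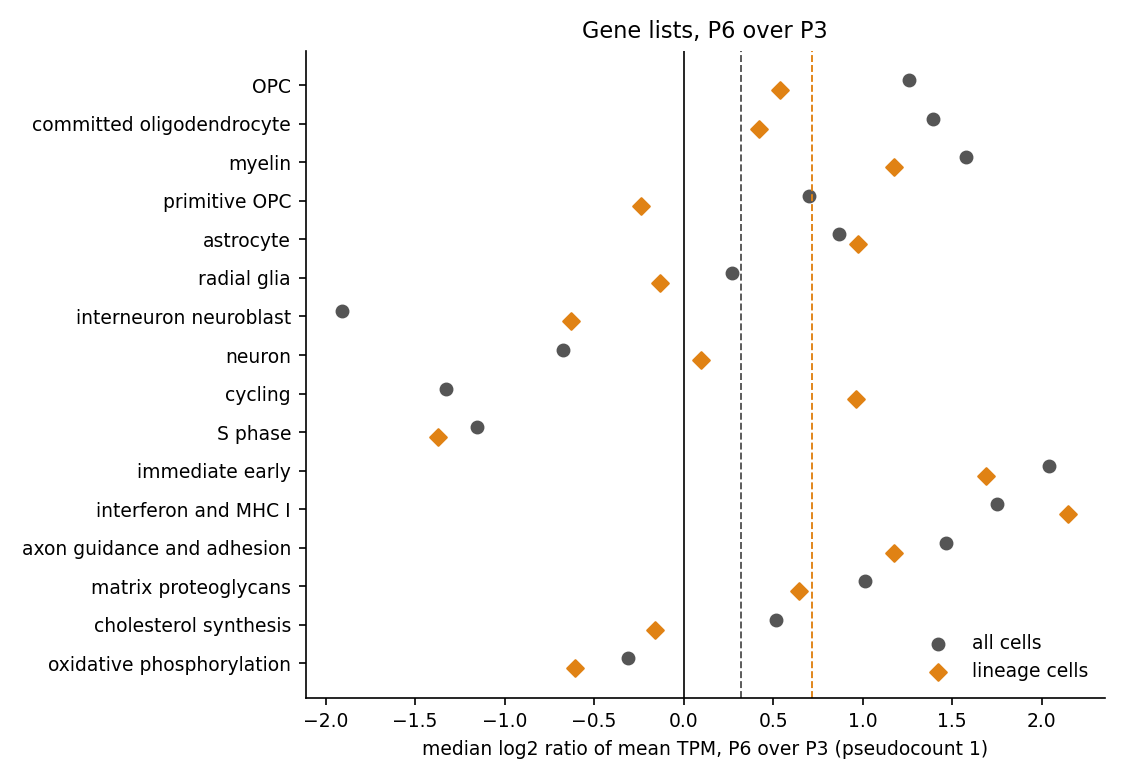
Each list of genes is shown by the median log2 ratio of mean TPM at P6 over P3 (x axis, 1 TPM added to each mean) over all cells (grey circles) and lineage cells (orange diamonds); dashed lines are the medians of all genes, 0.32 and 0.72. The OPC list lies at 1.26 over all cells, with the rule genes, and at 0.54 in lineage cells, without them. The neuroblast list moves from -1.91 to -0.63, and the S phase list stays below 0 in both.

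Cells outside the lineage rule, 21 at P6 and 47 at P3, were compared in the same way, with 506 of 14553 genes higher at P6 (3.48%) and 229 lower (1.57%). Of the 456 genes higher over all cells, leaving out the rule genes, 260 (57.02%) were past the rule in lineage cells too, which is 41.4% of the lineage list. Of the 167 lower genes 56 (33.5%) were, which is 12.4% of the lineage list. All 3 comparisons shared 158 higher and 27 lower genes. In direction alone, 420 of the 456 higher genes had a higher mean in both kinds of cell, and 129 of the 167 lower genes a lower mean in both. These comparisons share cells, so the counts describe how much of the difference over all cells was found in each kind of cell.

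**Figure D4:**
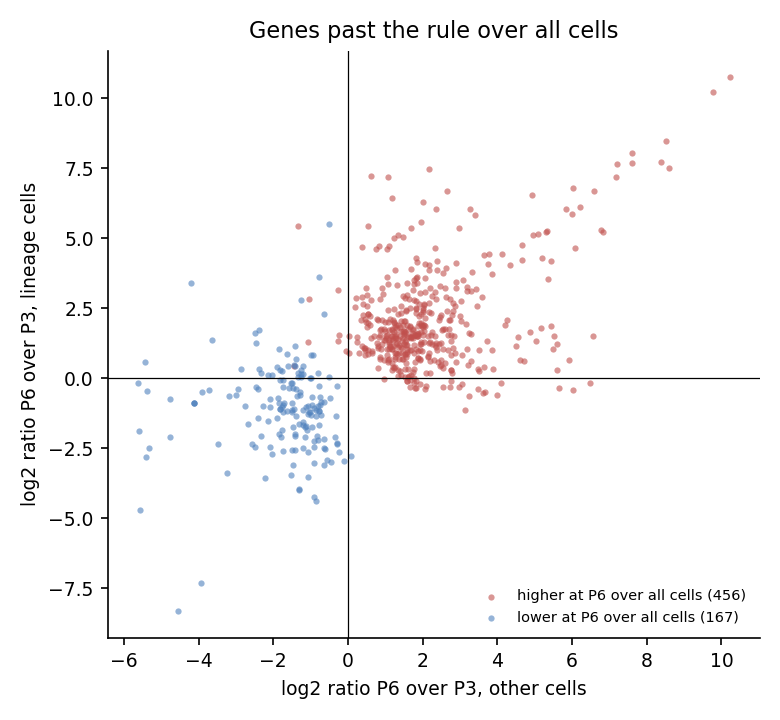
Each point is a gene past the rule over all cells (456 higher at P6 in red, without the rule genes, and 167 lower in blue), placed by its log2 ratio of mean TPM in cells outside the lineage rule (x axis) and in lineage cells (y axis). Of the red points 420 lie in the upper right quadrant, and of the blue points 129 lie in the lower left.

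A small number of genes separated the sets in nearly every cell, whatever its kind. The transcript with the clone name RP23-170M6.3 ranged from 51.99 to 183 TPM with a median of 84.7 at P6 and from 0 to 16.8 with a median of 2.59 at P3, so that the sets did not overlap. Among the 15737 genes this held for 2 transcripts, the other being the predicted gene Gm43652, named after its values were seen, and for none in the opposite direction. Slx1b, a subunit of a structure-specific nuclease (mm10, chromosome 7, 126688927 to 126695783), was at 10 TPM in all 53 P6 cells and 5 of 60 P3 cells, with medians of 54.7 and 2.74 TPM.

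The chemokine gene Ccl5 (chromosome 11, 83525778 to 83530518) was at 0 in all 60 P3 cells and at 10 TPM in 31 of 53 P6 cells (58.5%, 44.1 to 71.9), with a median of 12.2 and a highest value of 49.1 TPM. It was among 11 transcripts past the rule that were at 0 in every P3 cell, most of them with names of predicted genes. Of the transcripts past the rule, 0 were at 0 in every P6 cell. Cwc22, a splicing factor, was in 33 of 53 and 2 of 60 cells, the calcium pump gene Atp2b4 in 41 and 11, the signalling adaptor Traf5 in 44 and 9, and Chpt1, an enzyme of phosphatidylcholine synthesis, in 48 and 10. Cwc22 has near-identical copies in some mouse strains, so its value is uncertain. These 4 genes, Ccl5, Slx1b and RP23-170M6.3 were each past the rule in lineage cells and in other cells alike. In lineage cells Slx1b was at 10 TPM in 32 of 32 and 2 of 13 cells, and in other cells in 21 of 21 and 3 of 47. The 13 microglia markers summed to a median of 0 TPM in both sets (highest 59.8 at P6 and 752 at P3), and the part of other cell types in Ccl5 was not tested.

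**Figure D5:**
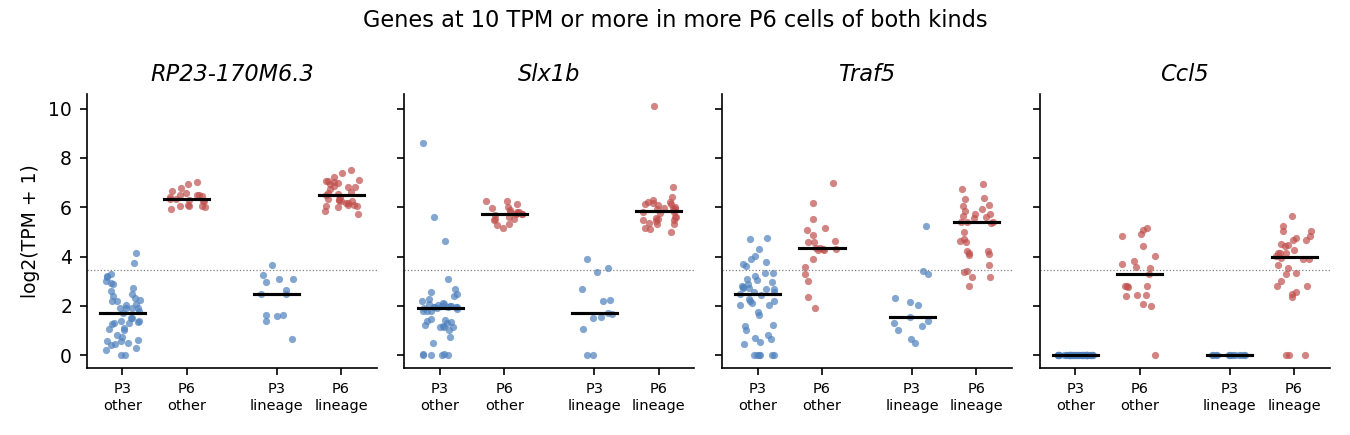
Each point is 1 cell, with log2(TPM + 1) on the y axis and P3 (blue) and P6 (red) cells outside and inside the lineage rule on the x axis; black bars are medians and the dotted line is 10 TPM. P6 cells of both kinds lie close together and above nearly all P3 cells for RP23-170M6.3 and Slx1b, Traf5 is higher at P6 with some overlap, and Ccl5 is at 0 in every P3 cell.

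The C1 cells of the other reporter strain, hGFAP-GFP, give a view of the same genes in sets of 61 cells at P4 and P6 and 49 at P3. The authors made that table separately, so only differences within it are given. Slx1b was at 10 TPM in 40.98% and 32.7% of those cells, so it did not have the near-complete split seen between the PDGFRa-GFP sets. Klf9 was in 6.56% and 32.7%, Sema6a in 22.95% and 55.1%, and Zfp36l2 in 31.1% and 44.9%, each a smaller share at the later stages, where PDGFRa-GFP cells had a larger one. Sp8 was in 34.4% and 10.2%, Nrep in 62.3% and 28.6% and Cdkn1b in 65.6% and 40.8%, the reverse of the PDGFRa-GFP sets. The difference between strains was not tested.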

How the data were processed

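Per the submitters' processing notes, the authors made the deposited TPM values with RSEM on mm10; no aligner version is given in the sources used here. The table has 46523 gene rows, 24948 of them at 0 in every cell, and none named as ribosomal protein, mitochondrial or spike-in rows. Sums per cell lay between 799846 and 970627 TPM. In all 113 cells the lower values lay on multiples of a step that differed between cells, as after a rescaling cell by cell. Rows may have been left out too, and how the values were rescaled or filtered is not stated. Cells were grouped by title. From the deposited TPM, means, medians and shares of cells at 10 TPM were computed (Python 3.11.15, pandas 2.3.3, scipy 1.17.1), keeping genes whose mean reached 1 TPM in either set. Ratios are log2 of means with a pseudocount of 1, which understates the change of low genes; intervals are Clopper-Pearson at 95%. With 1 set per stage no test was made. The calculation was checked on P3 cells split at random into groups, with the values of chosen genes multiplied by a known factor in the first group. This checked the arithmetic and not how often unchanged genes pass the rule. Named genes are the 15 per direction with the largest difference in share, leaving out predicted and sex-linked RNA genes, and members of 16 cell type and 29 other lists. A few of these genes are not reported here. Members, lists and rules were chosen with earlier results of these data known. Symbols and coordinates come from RefSeq genes of GRCm38.p6, of the same build; 45 of 49 named genes had a location. Alternatives changed scaling, pseudocount, filter, cell threshold, lineage rule and the cells kept.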

Additional observations from a re-analysis of the deposited data

How the results depend on the processing

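No paired analysis was possible because each stage is 1 set of cells and the labels do not pair cells between the sets. The share of lineage cells at P6 was 43.4% with 4 rule genes and 45.3% with the rule at 50 TPM; at P3 these settings gave 8 and 9 of 60 cells. Counting cells at 1 TPM gave 959 higher genes over all cells and 1243 in lineage cells, and at 50 TPM 247 and 338. Over all cells the lower genes were 515 among cells with 4200 to 5900 detected genes. In lineage cells the lower genes were 744 with the difference of mean log2 values, 829 with 4 rule genes, 717 without the cells that had 3 neuroblast markers, and 871 in that range of detected genes. With mean log2 values the OPC median over all cells was 1.97 and the neuroblast median -2.60; in the narrow range of detected genes the latter was -0.92. The S phase median in lineage cells was -0.59 without cells of 3 neuroblast markers. The immediate early median over all cells was 0.79 with a pseudocount of 10, 1.36 with no filter and 0.67 with mean log2 values. The median of all genes over all cells ranged from 0.13 with no filter to 0.37 when cells were rescaled over rows that are not predicted genes. Signs turned in lineage cells for Igf1r (0.10, no cells of 3 neuroblast markers), Mycl (0.0093 without the highest cell, 1.18 in the narrow range) and Rrm2 (1.18 and 1.11 without cells of 3 neuroblast or cycling markers). The Hedgehog median of lineage cells turned from -1.91 to 0.026 with no filter, 1.03 without the highest cell, 0.13 with 2 rule genes, 0.56 without cells of 3 neuroblast markers, 0.85 in the narrow range and 0.87 rescaled over named rows, and the pericyte median over all cells from 1.15 to -5.15 in the narrow range. Of 88 reported or listed genes past the rule over all cells, 32 were past it in every setting run, and of 77 in lineage cells, 21. The ranges of detected genes and the rescaling over named rows were chosen after seeing the data, except the range of 2500 to 7500, which left out no cell. The causes were not tested.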
